A study of Homo sapiens with 4 samples.

Results

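The enzymes that feed and turn the tricarboxylic acid (TCA) cycle were examined in Kasumi-1 cells, an established acute myeloid leukemia line, with and without knockdown of ANP32B. The members were listed by name for their function in the cycle, in pyruvate entry and in glutamate or aspartate entry, and a member was kept when it had at least 1 TPM in at least 2 of the 4 samples. Of 31 listed genes 30 were kept, among 16817 genes of the whole table that met the same limit. The remaining member, ME1, the cytosolic malic enzyme, had no row in the table and was not analysed here.

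RNA was sequenced from 2 samples labelled NC and 2 labelled sh-ANP32B. All 4 were Kasumi-1, and the sh-ANP32B samples carried an shRNA against ANP32B, a histone-binding nuclear phosphoprotein. The labels give the NC samples as having received no shRNA, while the methods of the study speak of a control hairpin, puromycin selection and 3 hairpins against ANP32B, so what the NC samples carried and which hairpin was used could not be told from these sources. The methods speak in general of independent repeats. Nothing states that the 2 replicates of a group here came from separate cultures, so the spread between them may be technical. The p-values of limma draw on this spread in the gene itself and, through the abundance trend, in other genes of like level. They may therefore not measure the spread between cultures. Values are TPM, a share-like unit for transcript abundance that is set per length and scaled to a fixed total in every sample. TPM keeps no read depth, so the depth was unknown and no counting error could be given. The level of ANP32B itself was 383.8 and 392 TPM in NC against 51.8 and 41.2 TPM in sh-ANP32B.

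Within the 4 samples, 5 of 7 markers of Kasumi-1 had a row. Of these, 4 had at least 10 TPM in every sample, among them RUNX1T1 at 15.6 to 31.2 TPM. KIT lay near the limit of 1 TPM, at 1.55 to 3.41 TPM, and CD34 and MPO had no row. Of 12 markers of other cell types 2 had a row, among them the endothelial PECAM1 at 34.8 to 58.7 TPM. Of 8 markers of myeloid maturation 6 had a row, and CD14 and FCGR3A had none. Those 6 summed to 701 and 729 TPM in NC and to 1409 and 1385 TPM in sh-ANP32B, nearly all of it LYZ (adjusted p by limma 0.0281, higher in sh-ANP32B). The other 5 had adjusted p-values by limma of 0.0551 (ITGAM) to 0.724 (CSF1R). The part of this marker difference in the enzyme values was not tested. In a bulk sample, fewer cells of a type and less RNA per cell cannot be told apart.

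In the TCA cycle, citrate synthase joins acetyl-CoA to oxaloacetate, and a round of oxidations returns oxaloacetate while passing electrons to the respiratory chain. Pyruvate enters through the pyruvate dehydrogenase complex, which PDK kinases switch off by phosphorylation and PDP phosphatases switch on again. Carbon also enters from glutamine by way of glutamate and 2-oxoglutarate, and from pyruvate by carboxylation. In myeloid leukemia the cycle is best known for IDH1 and IDH2, whose mutated forms make 2-hydroxyglutarate. The variants of these genes were not examined.

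Knockdown of ANP32B went with a lower level of IDH2, the mitochondrial NADP-dependent isocitrate dehydrogenase, which was the only member past the threshold. IDH2 had 228.5 and 232 TPM in NC against 129.7 and 151 TPM in sh-ANP32B. GOT2, the mitochondrial aspartate aminotransferase, and FH, fumarase, came next and did not pass. Of the subunits of the pyruvate and 2-oxoglutarate dehydrogenase complexes, PDHA1, PDHB, OGDH and DLST lay within 10% of NC, and PDHX, DLAT and DLD were at 80.1%, 86.9% and 87.1% of NC, none past the threshold. The 3 members whose groups lay apart with sh-ANP32B higher were PDK1, PDK2 and PDP1, all regulators of pyruvate dehydrogenase. They are 10% of the members, against 33.2% of all genes, and none of them passed.

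Genes were tested with limma on log2(TPM + 1), and p-values were adjusted by the Benjamini-Hochberg method over all 16817 genes. An adjusted p under 0.05 was reached by 1 of 30 members, lower in sh-ANP32B, or 3.33%, where 1.18% of all genes tested were lower at this threshold, 2.14% were higher and 3.32% passed in either direction. The study's limits, which ask for a log2 fold change beyond 0.5 in size and an unadjusted p under 0.05, were met by IDH2, GOT2 and FH, all lower. These are 10% of the members, against 6.55% of all genes in that direction. At an unadjusted p under 0.05 alone 7 members were lower and 0 higher, against 8.72% of all genes lower and 15% higher. Their names are IDH2, GOT2, FH, ME2, SUCLG2, CS and PCK2. The 7 are 23.3% of the members. Without NC replicate 1 or without NC replicate 2 the count of called members was 0, with 2 and 1 lower at an unadjusted p under 0.05 in limma. Without sh-ANP32B replicate 1 it was 11, all lower, and without sh-ANP32B replicate 2 it was 10, of which 7 were lower and 3 higher. Of all genes 1.93% and 1.62% passed in the first pair of these fits, and 24.3% and 20.7% in the second. CS, FH, GOT2, IDH2 and SUCLG2 passed in both fits that left out a sh-ANP32B library. DLAT, GLUD1, MDH1, ME2, SUCLA2 and SUCLG1 passed in the fit without replicate 1 but not in that without replicate 2, and MDH2 and PCK2, with IDH1, PDK1 and PDP1 higher, did the reverse. In these fits the lone sample was assumed to vary like the remaining pair. The counts under the study's limits were 2 and 1 without NC replicate 1 or 2, and 6 and 4 without sh-ANP32B replicate 1 or 2.

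The median log2 fold change of the 30 members was -0.20, and that of all genes tested was 0.08. A negative fold change was found in 22 members, or 73.3%, against 42.1% of all genes. Both sh-ANP32B samples lay below both NC samples in 17 members, or 56.7%, against 21.4% of all genes, and above both in 3 members, or 10%, against 33.2% of all genes. The remaining 10 overlapped. The summed level of all 30 members was 3221 and 3284 TPM in the NC samples and 3160 and 2874 TPM in the sh-ANP32B samples. PDK1, the most abundant member, lay the other way, and without it the sum was 2614 and 2618 TPM in the NC samples and 2272 and 2188 TPM in the sh-ANP32B samples.

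**Figure D1:**
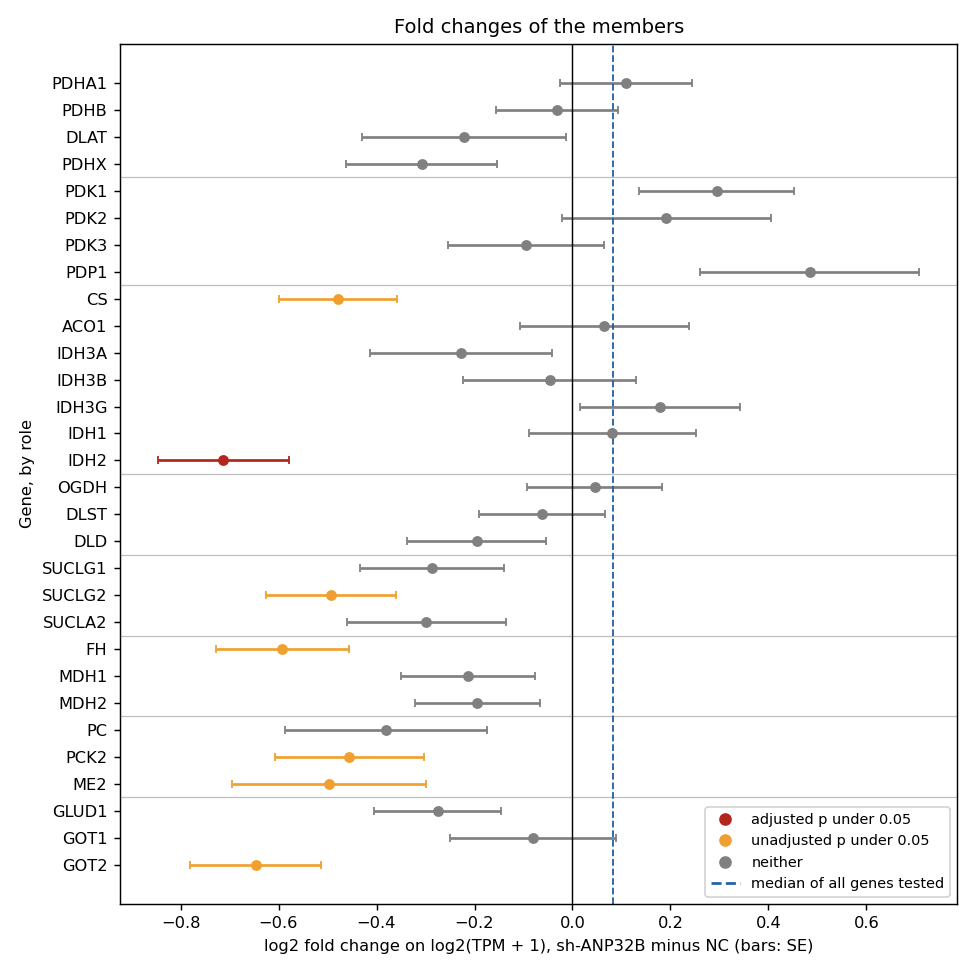
Log2 fold change of each of the 30 members on the log2(TPM + 1) scale, sh-ANP32B minus NC (2 samples each), ordered by role with lines between roles. Points are limma estimates and bars their SE. The dashed line is the median of all genes tested, 0.08, IDH2 is the member with an adjusted p under 0.05, and 6 other members, all left of 0, had an unadjusted p under 0.05 only.

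The promoters of FH, GOT2 and CS are shown because these genes were among the 7, and that of PDHB because it held an E-box and its gene differed little between the groups. PDK2, the other member with an E-box, lay higher in both sh-ANP32B samples, did not pass and is not shown. Genes picked by their values in this way allow no comparison of promoters. They are the 250 bases before the start in RefSeq (GRCh38.p14), read 5′ to 3′ on the strand of the gene. Capitals mark an E-box, spelled CACGTG, a GC box, spelled GGGCGG, or a CCAAT box, named for its letters. Each was searched on both strands. All 4 genes lie on the minus strand. The window of FH is chr1:241519756-241520005, that of GOT2 chr16:58734317-58734566, that of CS chr12:56300331-56300580 and that of PDHB chr3:58433833-58434082.
FH: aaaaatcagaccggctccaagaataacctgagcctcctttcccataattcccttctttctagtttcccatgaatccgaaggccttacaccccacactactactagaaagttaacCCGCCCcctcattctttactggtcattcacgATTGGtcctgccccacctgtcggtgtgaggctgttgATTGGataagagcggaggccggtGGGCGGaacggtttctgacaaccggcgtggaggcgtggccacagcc
GOT2: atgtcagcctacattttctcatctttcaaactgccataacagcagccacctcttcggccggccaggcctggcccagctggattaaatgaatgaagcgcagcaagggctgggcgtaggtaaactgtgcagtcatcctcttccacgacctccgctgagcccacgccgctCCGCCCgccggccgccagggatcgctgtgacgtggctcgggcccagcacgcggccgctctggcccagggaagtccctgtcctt
CS: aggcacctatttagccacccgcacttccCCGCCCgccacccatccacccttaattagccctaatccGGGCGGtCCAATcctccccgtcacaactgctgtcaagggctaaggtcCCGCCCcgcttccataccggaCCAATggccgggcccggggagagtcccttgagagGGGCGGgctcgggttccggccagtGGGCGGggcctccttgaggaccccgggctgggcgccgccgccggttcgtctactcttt
PDHB: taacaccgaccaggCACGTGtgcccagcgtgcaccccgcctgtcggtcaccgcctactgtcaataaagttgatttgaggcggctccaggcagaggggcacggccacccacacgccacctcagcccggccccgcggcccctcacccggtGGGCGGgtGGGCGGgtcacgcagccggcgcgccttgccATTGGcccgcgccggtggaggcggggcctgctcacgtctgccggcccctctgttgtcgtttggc

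The windows of FH and CS held GC boxes and CCAAT boxes, and that of GOT2 held 1 GC box. Neither of the motifs chosen first for their known place in MYC and mitochondrial gene promoters, CACGTG and the NRF1 motif, was in these 3. Of the 30 members 28 matched the promoter table, with 37 windows between them, and OGDH and PDP1 did not. The E-box was in 5.41% of the member windows, those of PDHB and PDK2, and in 6.34% of all 35116 windows of the same length, or 7.37% of those of coding genes. The NRF1 motif was in 0 member windows and in 1.03% of all windows. The GC box was in 64.9% of the member windows against 42.6% of all and 53.7% of those of coding genes, and the CCAAT box in 48.6% against 32% and 32.7%. CCGGAAG, the core bound by ETS factors, was in 13.5% of the member windows, none of them printed here, in 8.52% of all and in 10.7% of those of coding genes. None of these shares was tested, and a match marks letters, not a bound site. The only window listed for IDH2 lies at an internal start and is not shown.

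Among the subunits of the pyruvate dehydrogenase complex, PDHA1 and PDHB form its decarboxylase, DLAT is the acetyltransferase core and PDHX anchors the dehydrogenase DLD. PDHA1 had 80.7 and 73.1 TPM in NC against 80.7 and 85.3 TPM in sh-ANP32B. PDHB had 105.4 and 111 TPM against 105.9 and 105.6 TPM. For both the groups overlapped, with log2 fold changes of 0.11 and -0.03. DLAT had 33.7 and 34.9 TPM in NC, while the sh-ANP32B samples stood apart from each other at 35.5 and 24.1 TPM. PDHX had 30.97 and 34.03 TPM in NC against 26.7 and 25.3 TPM in sh-ANP32B, a log2 fold change of -0.31 (SE 0.154, adjusted p by limma 0.281). Of these 4 subunits PDHX was the one whose groups lay apart, by an amount that did not pass the test, and DLD is given with the 2-oxoglutarate complex.

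Of the 4 regulators of the complex 3 lay higher in both sh-ANP32B samples, as did 33.2% of all genes, and none passed. PDK1, the hypoxia-responsive kinase, was the most abundant member by far, with 607.6 and 666 TPM in NC against 888 and 686 TPM in sh-ANP32B. Its log2 fold change was 0.29 (SE 0.158, adjusted p by limma 0.313), and sh-ANP32B replicate 1 stood well above the other 3 samples. PDP1, a phosphatase that reactivates the complex, had 16.9 and 15.7 TPM in NC against 28.4 and 18.9 TPM in sh-ANP32B. Its log2 fold change was the highest among the members at 0.48 (SE 0.224, adjusted p by limma 0.249), again with sh-ANP32B replicate 1 set off from the rest. Without sh-ANP32B replicate 1 the fold changes of PDK1 and PDP1 were 0.11 and 0.20 (adjusted p by limma 0.392 and 0.41), and leaving out sh-ANP32B replicate 2 gave 0.48 and 0.76 (adjusted p by limma 0.0056 and 0.0106). After GC correction PDK1 passed, at 0.37 on the log2 scale (adjusted p by limma 0.0342), and PDP1 did not (0.0518). PDK2 had 5.65 and 6.43 TPM in NC against 7.04 and 7.01 TPM in sh-ANP32B (adjusted p by limma 0.642). PDK3 had 21.96 and 23.8 TPM against 21.6 and 21.2 TPM, with the groups just apart and sh-ANP32B lower (adjusted p by limma 0.773).

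PDK1 made up 95.7% of the summed TPM of PDK1, PDK2 and PDK3 in both NC samples, and 96.9% and 96.1% in the sh-ANP32B samples. The share of PDK3 was 3.46% and 3.42% in NC and 2.35% and 2.96% in sh-ANP32B. PDK4 had no row. PDK1 ranked 180 of the 16817 genes by mean level in NC. The lncRNA PDK1-AS1 lies on the opposite strand and shares 3% of the exon bases of PDK1. It was itself at 134 to 179 TPM, and since the sources used here do not state whether strand was counted, the level of PDK1 is uncertain to that extent.

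**Figure D2:**
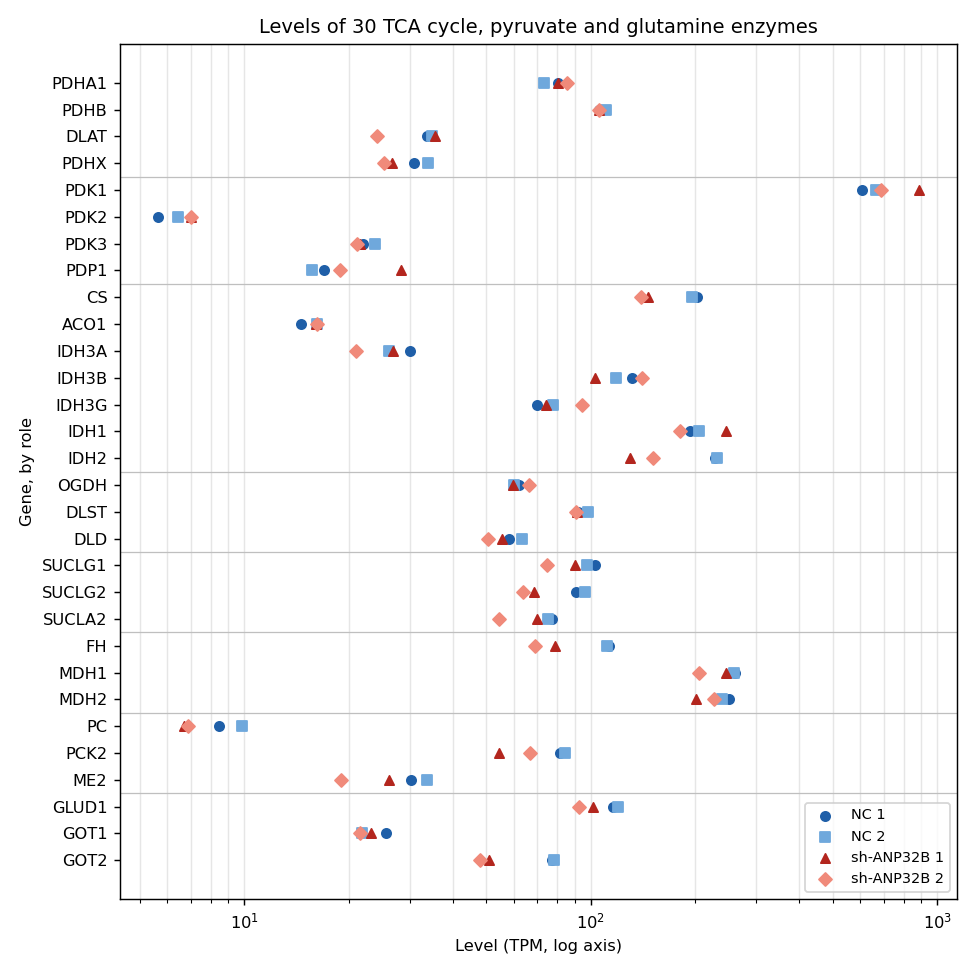
Level of each of the 30 members in the 4 samples, in TPM on a log axis, ordered by role with lines between roles. Blue symbols are the NC samples and red symbols the sh-ANP32B samples, and some symbols cover each other. PDK1 lies at 607.6 TPM or more in every sample, and the red symbols lie left of the blue ones for IDH2, CS, FH, SUCLG2, PCK2, ME2 and GOT2.

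From citrate to 2-oxoglutarate, CS and IDH2 lay below NC in both sh-ANP32B samples, and the other 5 members of this stretch overlapped. CS, citrate synthase, had 203 and 196 TPM in NC against 146 and 139.7 TPM in sh-ANP32B, which is 71.6% of NC. The replicates lay close together in each group, and its log2 fold change of -0.48 (SE 0.121, adjusted p by limma 0.0798) did not pass. IDH2 (ENSG00000182054, chromosome 15 from 90083045 to 90102477 on the minus strand of hg38) had a mean of 230.3 ± 2.51 TPM in NC against 140.6 ± 15.3 TPM in the knockdown (SD, n = 2 each), or 61.0% of NC. Its log2 fold change was -0.71 (SE 0.133, adjusted p by limma 0.0455). The call was lost without the abundance trend of limma (adjusted p 0.137), and it was also lost without NC replicate 1 or without NC replicate 2 (adjusted p by limma 0.294 and 0.343), at fold changes of -0.72 and -0.70. Without sh-ANP32B replicate 1 or 2 the adjusted p by limma was 0.00152 and 0.000807.

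IDH1, the cytosolic and peroxisomal counterpart of IDH2, had 193 and 205 TPM in NC against 245 and 180.7 TPM in sh-ANP32B. The sh-ANP32B samples lay on either side of NC, and the log2 fold change was 0.08 (SE 0.170, adjusted p by limma 0.822). It was -0.14 without sh-ANP32B replicate 1, and 0.30 without sh-ANP32B replicate 2 (adjusted p by limma 0.0398). The NAD-dependent enzyme of the cycle is built from IDH3A, its catalytic subunit, and from IDH3B and IDH3G. IDH3A had 30.1 and 26.1 TPM in NC against 26.9 and 21.0 TPM in sh-ANP32B. IDH3B had 131 and 118 TPM against 103 and 140.8 TPM, and IDH3G had 70.0 and 78.0 TPM against 74.4 and 94.2 TPM. In all 3 the groups overlapped, with log2 fold changes of -0.23, -0.05 and 0.18. ACO1, the cytosolic aconitase that doubles as an iron sensor, had 14.6 and 16.2 TPM in NC against 16.1 and 16.2 TPM in sh-ANP32B.

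Of the summed TPM of IDH1, IDH2 and IDH3A, IDH2 took 50.6% and 50.1% in the NC samples and 32.3% and 42.9% in the sh-ANP32B samples. The share of IDH1 was 42.8% and 44.2% in NC and 61.0% and 51.2% in sh-ANP32B. IDH2 thus had the larger share in both NC samples and IDH1 in both sh-ANP32B samples. Such a share does not move with the scaling between samples, but it can move where samples differ by GC content. The longest transcripts of IDH2 and IDH1 have 55.5% and 43.1% GC, and the part of this in the shares was not tested. With 2 samples in each group, the smallest p of an exact two-sided permutation test is 0.333, so no test of the shares was run.

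The 2-oxoglutarate dehydrogenase complex, which oxidises 2-oxoglutarate to succinyl-CoA, differed little. OGDH, its decarboxylase, had 62.2 and 59.9 TPM in NC against 59.8 and 66.5 TPM in sh-ANP32B, and the groups overlapped. DLST, the succinyltransferase core, had 91.8 and 98.2 TPM against 91.2 and 90.5 TPM. DLD, the dehydrogenase shared with the pyruvate and branched-chain complexes, had 58.2 and 63.3 TPM against 55.4 and 50.5 TPM, a log2 fold change of -0.20 (SE 0.141, adjusted p by limma 0.451). DLST and DLD were each below NC in both sh-ANP32B samples, DLST by less than its SE and DLD by more than its SE and both of its replicate gaps, and neither passed. The sign of OGDH depended on the scaling, as its log2 fold change was 0.04 as deposited and -0.05 after median-of-ratios scaling.

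Succinyl-CoA ligase, which makes a nucleoside triphosphate directly, pairs SUCLG1 with either the GTP-forming SUCLG2 or the ATP-forming SUCLA2. All 3 subunits were below NC in both sh-ANP32B samples, as were 21.4% of all genes. SUCLG2 had 90.9 and 96.4 TPM in NC against 68.7 and 63.8 TPM in sh-ANP32B, or 70.7% of NC, at a log2 fold change of -0.49 (SE 0.132, adjusted p by limma 0.0904). SUCLA2 had 77.1 and 75.3 TPM against 70.0 and 54.5 TPM, with a fold change of -0.30 (SE 0.162, adjusted p by limma 0.317). SUCLG1 had 103 and 97.7 TPM against 90.1 and 74.7 TPM, with a fold change of -0.29 (SE 0.147, adjusted p by limma 0.290). In each case sh-ANP32B replicate 2 was the lowest sample. Without it the fold changes of SUCLA2 and SUCLG1 were -0.12 and -0.15 (adjusted p by limma 0.436 and 0.303), while leaving out sh-ANP32B replicate 1 gave -0.48 and -0.42 (0.0115 and 0.0161). SUCLG2 held 54.1% and 56.2% of the summed TPM of the beta subunits in NC, and 49.5% and 53.9% in sh-ANP32B, so the shares of the groups lay nearly side by side.

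The steps from fumarate to oxaloacetate were led by FH. FH had 112.7 and 111 TPM in NC against 79.0 and 69.2 TPM in sh-ANP32B, or 66.2% of NC, at a log2 fold change of -0.59 (SE 0.135, adjusted p by limma 0.0659). Both sh-ANP32B samples were below NC. Its adjusted p by limma was 0.0451 over protein-coding genes only, 0.0502 to 0.0709 with other pseudocounts, filters and scalings, 0.159 without the abundance trend and 0.486 without either NC replicate. MDH2, the mitochondrial malate dehydrogenase, had 251 and 239 TPM in NC against 201 and 227 TPM in sh-ANP32B. MDH1, its cytosolic counterpart, had 261 and 259 TPM against 246 and 205 TPM. Their log2 fold changes were -0.19 and -0.21 (SE 0.128 and 0.137, adjusted p by limma 0.406 and 0.394). Without sh-ANP32B replicate 1 that of MDH1 was -0.34 (adjusted p by limma 0.0163), and without replicate 2 it was -0.08 (0.499). That of MDH2 was -0.11 (0.398) and -0.28 (0.0474) in turn. The share of MDH2 in the summed TPM of both was 49.0% and 47.9% in NC and 45.1% and 52.5% in sh-ANP32B, and these overlapped.

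The 3 members that join the cycle to pyruvate and phosphoenolpyruvate were below NC in both sh-ANP32B samples, as were 21.4% of all genes. In ME3, a malic enzyme among the other pathway genes, the groups overlapped. It had 15.1 and 16.5 TPM in NC against 12.0 and 17.7 TPM in sh-ANP32B. PCK2, the mitochondrial phosphoenolpyruvate carboxykinase, had 81.5 and 84.5 TPM in NC against 54.3 and 66.9 TPM in sh-ANP32B, at a log2 fold change of -0.46 (SE 0.153, adjusted p by limma 0.141). ME2, the mitochondrial malic enzyme that turns malate into pyruvate, had 30.4 and 33.6 TPM against 26.2 and 19.0 TPM, with a fold change of -0.50 (SE 0.197, adjusted p by limma 0.193). PC, pyruvate carboxylase, had 8.45 and 9.85 TPM against 6.68 and 6.87 TPM, with a fold change of -0.38 (SE 0.207, adjusted p by limma 0.317). The groups of each lay apart, and none passed over all genes. Without sh-ANP32B replicate 1 the fold change of ME2 was -0.72 (adjusted p by limma 0.00725) and without replicate 2 it was -0.27 (0.195), and that of PCK2 was -0.31 (0.0597) and -0.60 (0.00556). ME2 shared its family with ME3, and the share of ME2 was 66.7% and 67.1% in NC and 68.6% and 51.8% in sh-ANP32B, where the replicates disagreed.

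At the entry of glutamate and aspartate, GOT2 stood out. GOT2, which moves amino groups between glutamate and oxaloacetate and serves the malate-aspartate shuttle, had 77.1 and 78.5 TPM in NC against 50.9 and 47.8 TPM in sh-ANP32B. The replicates of each group nearly coincided, and the mean of sh-ANP32B was 63.4% of NC, at a log2 fold change of -0.65 (SE 0.134, adjusted p by limma 0.0551). Among other alternatives it passed with at least 1 TPM in all samples (adjusted p by limma 0.0437), median-of-ratios scaling (0.0437), upper-quartile scaling (0.0483), quantile normalization (0.0496) and protein-coding genes only (0.0363), and it did not pass with a pseudocount of 0.1 (0.0599), with no filter (0.0567), without mitochondrial-genome genes (0.0511), without the abundance trend (0.140) or without NC replicate 1 or 2 (0.407 and 0.460). GOT1, the cytosolic form, had 25.7 and 21.9 TPM in NC against 23.2 and 21.6 TPM in sh-ANP32B, with overlapping groups and a fold change of -0.08 (SE 0.169, adjusted p by limma 0.822). GOT2 made up 75.0% and 78.2% of the summed TPM of both in NC and 68.7% and 68.9% in sh-ANP32B, so the shares of the groups did not overlap. GLUD1, glutamate dehydrogenase, had 116 and 119.5 TPM in NC against 101.8 and 92.8 TPM in sh-ANP32B, a fold change of -0.28 (SE 0.129, adjusted p by limma 0.254).

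**Figure D3:**
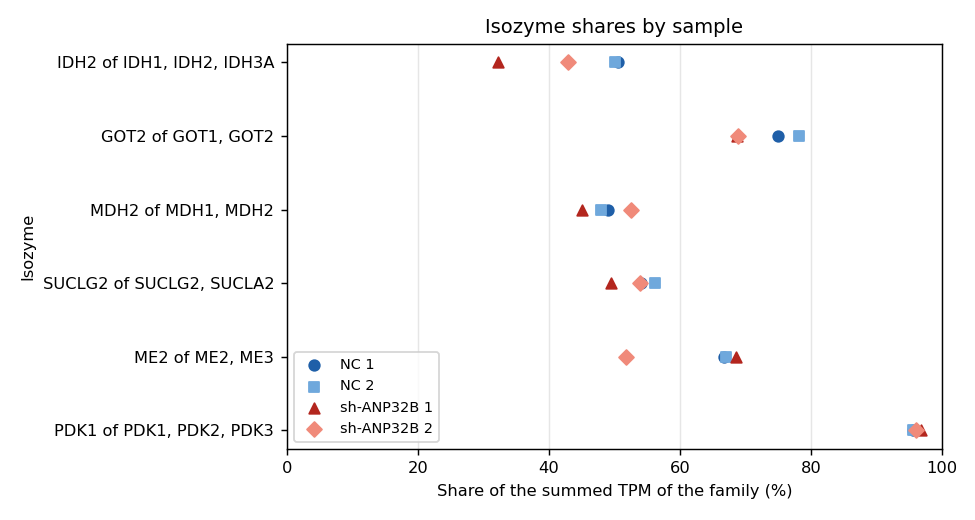
Share of 1 isozyme in the summed TPM of its family in each of the 4 samples, in percent. Blue symbols are NC and red symbols sh-ANP32B. The share of IDH2 is near 50% in both NC samples and 32.3% and 42.9% in sh-ANP32B, that of GOT2 is lower in both sh-ANP32B samples, and those of MDH2 and ME2 overlap.

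By place in the cell, a split made after the values were seen, the 4 cytosolic members ACO1, IDH1, MDH1 and GOT1 had a median log2 fold change of -0.01, and the 26 mitochondrial members one of -0.22. The groups lay apart with sh-ANP32B lower in 1 of the 4 and in 16 of the 26, against 21.4% of all genes. The difference between the places was not tested. In level, the members were abundant transcripts, with a median of 77.35 TPM in NC against 14.3 TPM over all genes. After PDK1 the order by mean level in NC was MDH1, MDH2, IDH2, CS and IDH1, of which CS and IDH1 did not differ beyond their spread, at 199.4 ± 5.16 and 199.0 ± 8.32 TPM (SD, n = 2 each). PDK2 was the lowest at 6.04 ± 0.552 TPM (SD, n = 2).

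The sh-ANP32B replicates differed from each other according to GC content, and the members followed this. Between sh-ANP32B replicates 1 and 2 the members differed with a Spearman rho of 0.79 against the GC content of the longest transcript, across 30 genes that share their libraries. Between the NC replicates rho was -0.01. Over the 15427 genes of the table with a GC value rho was 0.58 for sh-ANP32B and -0.21 for NC. Of 20 members with under 50% GC, 18 were lower in sh-ANP32B replicate 2 than in replicate 1, and of 10 members with at least 50% GC, 7 were higher. In log2(TPM + 1), replicate 2 minus replicate 1, the lowest values were -0.56 for PDP1 and -0.54 for DLAT, and the highest was 0.44 for IDH3B. The fold change itself had a rho of only 0.10 with GC content. After loess correction for GC content in each sample 7 members passed the adjusted p of 0.05 by limma, with IDH2, GOT2, FH, CS, SUCLG2 and PCK2 lower and PDK1 higher. Of all genes 2772 of 15427 passed in that fit.

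**Figure D4:**
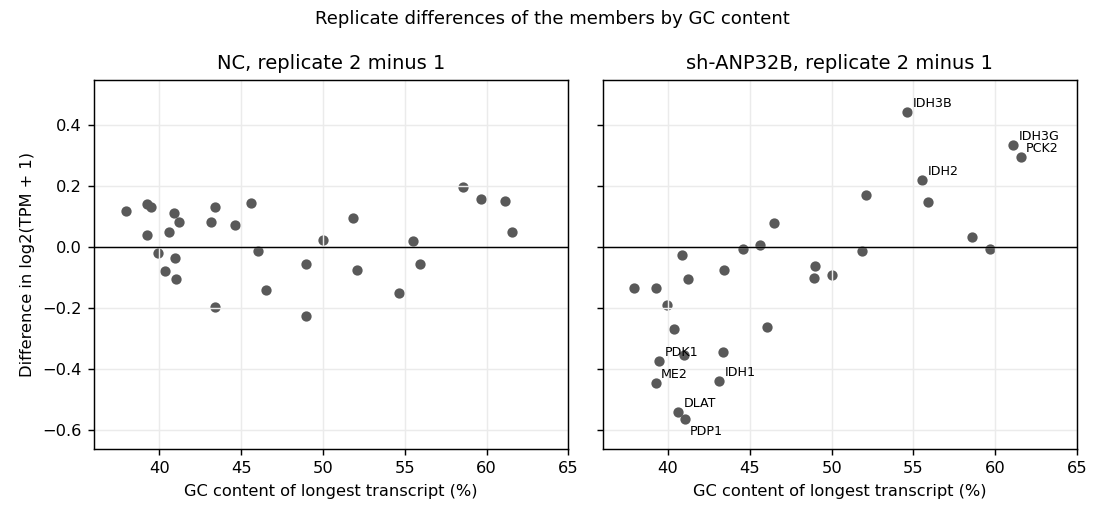
Difference in log2(TPM + 1) between the replicates of a group, replicate 2 minus 1, against the GC content of the longest transcript in percent, for the 30 members. The left panel is NC and the right panel sh-ANP32B. The right panel runs from PDP1 and DLAT at -0.56 and -0.54 to IDH3B at 0.44, and the left panel shows no slope.

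Other genes of the pathway, listed for their function, gave a mixed picture. Of 42 listed genes 37 were tested, and OGDHL, PDK4, PCK1, GLS2 and GLUD2 had no row. In limma 0 of the 37 had an adjusted p under 0.05, 5 were lower and 3 higher at an unadjusted p under 0.05 (8.72% and 15% of all genes), and their median log2 fold change was 0.01. Without sh-ANP32B replicate 1 or 2, 6 of the 37 passed in either case, where 24.3% and 20.7% of all genes did, and with GC correction 5 passed, where 18% of all genes did. The groups lay apart with sh-ANP32B lower in 11 of the 37, or 29.7%, and higher in 8, or 21.6%, against 21.4% and 33.2% of all genes. The subunits of succinate dehydrogenase, SDHA, SDHB, SDHC and SDHD, had log2 fold changes of -0.02, -0.04, 0.03 and 0.10 with an SE of at most 0.174. MPC1 and MPC2 form the pyruvate carrier of the inner mitochondrial membrane. MPC1 had 77.7 and 107 TPM against 93.5 and 90.6 TPM, and MPC2 had 48.7 and 43.7 TPM against 53.5 and 73.9 TPM, with a log2 fold change of 0.44 (SE 0.188, adjusted p by limma 0.220).

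Under the study's limits 2 of these other genes, or 5.41%, were lower and 2 higher, against 6.55% and 12.1% of all genes. These 4 are named here after their values were seen. SLC1A5, a glutamine importer of the plasma membrane, had 189.6 and 182 TPM in NC against 105.6 and 140.1 TPM in sh-ANP32B, a log2 fold change of -0.61 (SE 0.164, adjusted p by limma 0.0918). SDHAF3, an assembly factor of succinate dehydrogenase, had 14.9 and 18.8 TPM against 10.7 and 10.5 TPM (adjusted p by limma 0.124). PPM1K, the phosphatase that activates the branched-chain complex, had 12.2 and 14.9 TPM against 25.7 and 18.2 TPM (adjusted p by limma 0.149). GPT, the cytosolic alanine aminotransferase, had 3.42 and 3.38 TPM against 5.73 and 5.59 TPM (adjusted p by limma 0.185). The groups of all 4 lay apart, and none passed over all genes.

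Some levels can hold reads of other genes. In GENCODE, 14 of the 30 members share exon bases with another gene of the table on the opposite strand, and 16 share none, IDH2, GOT2 and FH among them. CS also shares 3.44% of its exon bases on its own strand with the coding gene ENSG00000144785, itself at 0.649 to 6.13 TPM. The largest such share belongs to PDHA1, with 19.3% of its exon bases in common with MAP3K15, itself at 8.06 to 11.1 TPM. IDH3G shares 9.89% with SSR4, which was at 235 to 367 TPM, so the level of IDH3G is uncertain. PC, itself at 6.68 to 9.85 TPM, shares 8.5% with LRFN4, which was at 52.6 to 93.4 TPM. PDHX shares 4.09% with APIP, which had 48.8 and 45.4 TPM in NC against 33.3 and 33.6 TPM in sh-ANP32B. The levels of PC and PDHX are therefore uncertain too, and the part of such reads in their fold changes was not tested. Pseudogenes named after members number 24, of which DLSTP1 and GLUD1P3 had a row, at no more than 4.58 and 10.9 TPM. GOT2 has 6 such copies, FH has 1 and CS has 2, none of them with a row, and how reads shared with them were counted was not given in the sources used here.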

How the data were processed

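RNA of 2 NC and 2 sh-ANP32B samples of Kasumi-1 was prepared with a TruSeq kit, and the authors aligned the reads to hg38 with HISAT2 (version 2.0.5, per the labels). The deposited values are TPM, as judged from decimals whose column sums were 997812.2 to 998313.6. The program that made them, its annotation and any filter were not given in the sources used here. Of 18567 Ensembl gene IDs in it, 16986 were found in GENCODE v44, which was used for symbols, positions and GC content.

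The filter kept genes that reached 1 TPM in 2 or more samples. On the log2(TPM + 1) scale, the 2 groups were compared by limma (version 3.58.1, R 4.3.3) with an abundance trend, two-sided, with Benjamini-Hochberg adjustment over 16817 genes. Fold changes are on this scale, which understates low genes. The method was also run on simulated data for the same genes. The errors there were drawn independently from the variance model that limma had fitted, without a difference by GC content. That run therefore cannot show how limma behaves on these libraries. The study used DESeq2 on counts, which was not run. The members and lists were chosen with earlier results of these data known. All members are given, with sample values for those with an unadjusted p under 0.05 and for isozymes, and among the other pathway genes the SDH subunits, MPC1, MPC2 and any called gene were to be named, and 2 further named genes and a marker gene are not reported here. The GC box, CCAAT box and ETS motifs and the split by place in the cell were added after values had been seen. Alternatives were pseudocount, filter, scaling, GC correction, replicate block, variance model, genes tested and leaving out each replicate. Scripts ran in Python 3.11.15 with numpy 2.4.6, pandas 2.3.3, scipy 1.17.1 and matplotlib 3.10.9.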

Additional observations from a re-analysis of the deposited data

How the results depend on the processing

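IDH2 kept its direction under every alternative run, as did GOT2, FH, ME2, SUCLG2, CS and PCK2. In these genes both sh-ANP32B samples lay below both NC samples. Leaving out a replicate, changing the pseudocount, or adding a replicate block to these values, could therefore not change their sign. A change of filter, of the genes tested or of the variance model leaves the fold change of every member as it was. So does the replicate block without GC correction. Under those alternatives only the side of the threshold could change, also in the count that follows. Of 480 member values under 16 alternatives 421 kept direction and side of the threshold, 38 gained the call, 3 lost it and 18 changed sign, in 7 members with an unadjusted p of 0.05 or more. The cause of these shifts was not tested. The number of called members, 1 as reported, was 2 with at least 1 TPM in all samples, with median-of-ratios scaling, with upper-quartile scaling and with quantile normalization, 3 over protein-coding genes only, 7 with GC correction, and 0 without the abundance trend, where limma gave 5 members an unadjusted p under 0.05. Of all genes tested in these fits 5.61%, 3.08%, 2.9%, 2.84%, 8.58%, 18% and 0% passed in turn. The share of all genes past the study's limits was not computed under any alternative, leaving out a replicate included. Counts of members past these limits therefore have no background beside them there. The number of such members, 3 as reported, was 7 with median-of-ratios scaling, upper-quartile scaling, quantile normalization or without mitochondrial-genome genes, and 5 with GC correction. The median over the members, -0.20 as reported, was -0.30, -0.27, -0.25 and -0.25 in these scalings in turn, and -0.15 with GC correction. The median over all genes tested moved too. It was 0.083 as reported, 0.001, 0.028, -0.008 and 0.040 in the same scalings in turn, and 0.084 with GC correction. Called genes of the whole table, 559 as reported (199 lower, 360 higher), were 966 over protein-coding genes, 2772 with GC correction, and 0 without the trend, where limma gave 3701 an unadjusted p under 0.05. The split was 288 lower and 230 higher with median-of-ratios scaling, 231 and 256 with upper-quartile scaling and 234 and 244 with quantile normalization. The other pathway genes had 0 calls as reported and 5 with GC correction. ANP32B had a log2 fold change of -3.04 (SE 0.150, adjusted p by limma 0.00516), and without the trend -3.04 with an adjusted p of 0.0929.

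Leaving out each replicate in turn gave 0 to 11 called members, 1 to 6 members past the study's limits, a member median of -0.28 to -0.10, 0 to 6 calls among the other pathway genes and 273 to 4079 in the whole table. Each of these fits has 1 sample in a group. Members that changed sign there ranged from -0.0074 to 0.14 (ACO1), -0.27 to 0.18 (IDH3B), -0.19 to 0.031 (GOT1), -0.068 to 0.0056 (PDHB), -0.14 to 0.30 (IDH1), -0.49 to 0.049 (DLAT) and -0.030 to 0.12 (OGDH). In the other alternatives ACO1 and IDH1 were -0.023 and -0.012 with median-of-ratios scaling. OGDH was -0.047 with that scaling, -0.017 with upper-quartile scaling, -0.035 with quantile normalization, -0.0045 without mitochondrial-genome genes and -0.020 with GC correction, and PDHB was 0.034 with GC correction.

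The replicate numbers come from the titles, and nothing says that they pair samples. The deviations of same-numbered samples correlated at -0.09 (Pearson) and -0.17 (Spearman) across genes. With the replicate block 2 members (IDH2 and GOT2) and 1473 genes, or 8.76% of those tested, passed. With the replicate block and GC correction 7 members, 3 other pathway genes and 2350 genes, or 15.2% of those tested, passed. PDP1 was among the 7 in place of PDK1, whose adjusted p by limma was 0.0851. The study's limits were met by 5 members, the member median was -0.15, and PDHB and OGDH were at 0.034 and -0.020. A crossed replicate block, added after that correlation was seen, gave 5 members, 1 other pathway gene and 1995 genes, or 11.9% of those tested. The depth behind the TPM values is unknown, so low members such as PDK2 and PC cannot be given a counting error.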
